A study of Mus musculus with 6 samples.

Results

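The small leucine-rich proteoglycans (SLRPs) are secreted proteins of the extracellular matrix (ECM), and 9 of their genes, *Dcn*, *Bgn*, *Lum*, *Fmod*, *Ogn*, *Prelp*, *Aspn*, *Omd* and *Podn*, were chosen by name from a table of 55426 genes. Each of the 9 symbols matched a single row. The choice went by family membership and not by a measured value. Earlier results of these data were known when it was made. Expression was measured by RNA sequencing of polyadenylated RNA from whole abdominal aorta of male C57BL/6J mice, in 3 control libraries and 3 *Prdm16* SMKO libraries. The study gives the *Prdm16* SMKO genotype as *Prdm16* fl/fl with *Myh11*-CreERT2 and calls the controls wild type with *Myh11*-CreERT2, whereas the labels name them only control and *Prdm16* knockout. *Myh11*-CreERT2 is a Y-linked transgene that carries a tamoxifen-dependent Cre into smooth muscle, by which the study targeted *Prdm16* in vascular smooth muscle cells (VSMCs). Values of whole aorta do not show in which cells the gene was lost. For their aneurysm model the methods state tamoxifen at 75 mg/kg/day for 5 days by gavage in males of 8 to 10 weeks, with surgery 2 weeks later, and the age and the time after tamoxifen of the mice used for sequencing are not given in the sources used here. The labels number the libraries as replicates without saying that each came from a separate mouse, so that p-values measure the spread between these libraries.

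SLRP core proteins are built from leucine-rich repeats folded into a curved shape, and most of them carry chains of chondroitin, dermatan or keratan sulfate. They bind fibrillar collagens and set the width and spacing of the fibrils, and several of them hold growth factors such as TGF-β in the matrix or engage receptors at the cell surface. In the artery wall they are made by VSMCs of the media and by fibroblasts of the adventitia, which a sample of whole aorta holds together.

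Values are TPM, a measure of transcript abundance that is corrected for transcript length and adds up to the same total in every library, so that the levels of different genes can be set side by side. Groups were compared with limma, a linear model with moderated variances, on log2(TPM + 0.5), and 15775 genes whose mean reached 0.5 TPM were tested. A gene was called at a Benjamini-Hochberg adjusted p under 0.05 over all of these genes. Log2 fold changes are *Prdm16* SMKO minus control on this scale, with their standard errors (SE) and 95% confidence intervals. Single values were also compared with a two-sided exact permutation test, which with 3 libraries against 3 cannot give a p below 0.1. TPM values keep no sequencing depth, and beyond the average of 40 M read pairs stated for the samples the depth of each library is unknown.

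The targeted gene, *Prdm16*, stood at 33.4, 36.8 and 30.8 TPM in control mice and at 20.8, 27.7 and 14.8 TPM in *Prdm16* SMKO mice. Each knockout value was below each control value, with a log2 fold change of -0.70 (SE 0.23) that did not pass the test (limma adjusted p = 0.376). The table gives a single value per gene and cannot show an excised exon. Libraries had 20332 to 22100 genes above 0, mitochondrial genes took 15.8% to 27.4% of all TPM and 2 genes of the 45S ribosomal precursor took 15.5% to 31.4%. Control replicate 2 held the highest value of 9 of 12 VSMC marker genes, and *Prdm16* SMKO replicate 2 held the highest value of 9 of 13 tested fibroblast markers and of 10 of 10 macrophage markers. The defining VSMC markers *Myh11* and *Acta2* stood at 1488 TPM or more and 5256 TPM or more in all 6 libraries.

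Over all genes, 56 of 15775 were called, 0.355%, and 29 of them were higher and 27 lower in *Prdm16* SMKO mice. With the scaling of the libraries changed to median-of-ratios size factors, 61 of 153 called genes were higher, and after quantile normalization 46 of 129 were. Of the 9 SLRP genes 0 were called by limma, and 0 were called under any of the 18 other settings tried. At an unadjusted p under 0.05 stood 2 of the 9, where 8.74% of all genes tested did. They were *Bgn* on the lower side, with 3.85% of all genes, and *Podn* on the higher side, with 4.88%. For the same 2 genes control and knockout values had no overlap, as was so for 12.8% of all genes tested. The median log2 fold change of the 9 genes was 0.10, beside 0.02 over all genes, and the median size of the change without its sign was 0.20, beside 0.18.

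**Figure D1:**
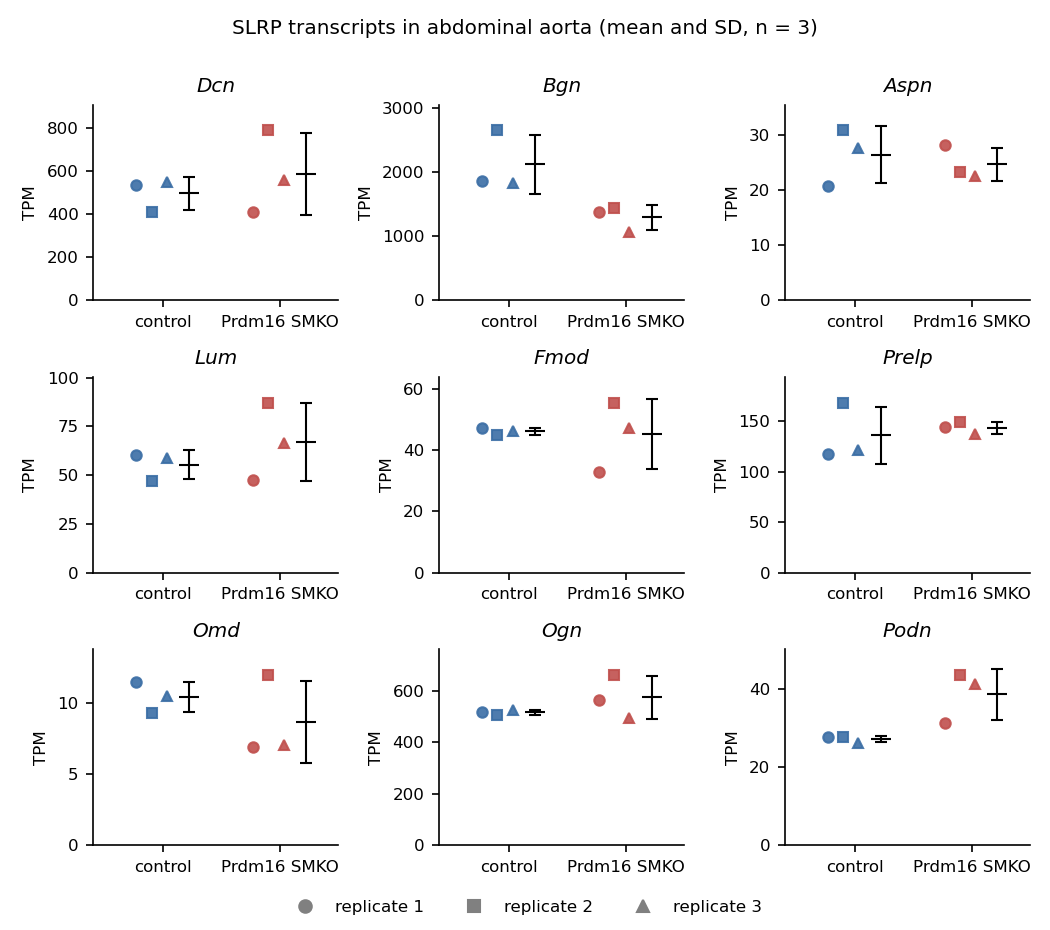
Expression of the 9 SLRP genes in TPM, on linear axes that start at 0, in 3 control libraries (blue) and 3 *Prdm16* SMKO libraries (red), with 1 symbol shape per replicate number and with the group mean and SD in black. The 3 *Prdm16* SMKO values of *Bgn* lie below all control values, those of *Podn* lie above all control values, and the groups overlap for the other 7 genes.

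*Bgn* and *Podn*, neither of them called, are the 2 members without overlap between groups, and the bases just upstream of their transcription starts are shown for that reason. They are RefSeq starts on GRCm38.p6, of which 7 of the 9 members had an entry. Bases that GENCODE M21 annotates as an exon were left out, capitals mark each match to the GC box motif GGGCGG on either strand, and the sequences run 5′ to 3′ on the strand of the gene.
*Bgn*, chrX:73483351-73483600, plus strand: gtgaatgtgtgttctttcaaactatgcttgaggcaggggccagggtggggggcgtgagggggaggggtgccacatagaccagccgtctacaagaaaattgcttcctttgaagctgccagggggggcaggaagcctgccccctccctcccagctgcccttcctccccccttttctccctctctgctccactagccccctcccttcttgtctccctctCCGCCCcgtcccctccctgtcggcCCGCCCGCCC
*Podn*, chr4:108032091-108032204, minus strand: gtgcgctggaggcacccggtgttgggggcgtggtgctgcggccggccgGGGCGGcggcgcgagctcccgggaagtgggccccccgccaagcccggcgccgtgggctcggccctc
The printed stretch of *Bgn* held 3 matches to the GC box, the last 2 of them in overlapping letters next to the start. The printed stretch of *Podn* is shorter and, with exon bases left out, does not reach the start. It held 1 match, and over the full 250 bases before the start matches lay at -202 and -70. Over the full 250 bases before the start the GC content was 64.4% for *Bgn* and 78% for *Podn*, against a median of 52.4% over all promoters in the RefSeq table. A GC box is held by 32.7% of all 32851 promoters listed there. Other motifs were searched on both strands and were found in neither window. They were the TATA box TATAAA, which 12.4% of all promoters hold, the CCAAT box, which 33.8% hold, the AP-1 site TGANTCA, which 6.75% hold, the TEAD site GGAATG, which 12.6% hold, and the CArG box, which 1.47% hold. A match is a run of letters and was not tested as a binding site. RefSeq has 2 starts for *Podn*, and the gene in GENCODE M21 begins farther upstream than the start used here.

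Class I of the family holds the chondroitin and dermatan sulfate proteoglycans biglycan and decorin, and asporin, which has no such chain. *Bgn* encodes biglycan, which binds collagen and elastin-rich matrix and, once released from it, signals through Toll-like receptors. It lies on chromosome X at 73483602 to 73495933, in GENCODE M21 positions on GRCm38 as for all genes here. It was the most abundant SLRP transcript in all 6 libraries, at 1869, 2660.3 and 1842 TPM in control mice and at 1382, 1441 and 1071 TPM in *Prdm16* SMKO mice. The highest knockout value was below the lowest control value, and control replicate 2 stood well above the other 2 controls. The means were 2124 ± 465 TPM and 1298 ± 199 TPM (SD, n = 3 each), or 0.615 times the control level on the fitted scale, with an interval from 0.443 to 0.856. The log2 fold change was -0.70 (SE 0.21), lower than that of all but 3.21% of the genes tested, and its limma adjusted p was 0.332. The exact permutation test gave p = 0.1. Without control replicate 2 the log2 fold change was -0.53, and over the 18 other settings it ran from -0.79 to -0.53, with adjusted p between 0.062 and 0.735. In bulk tissue fewer cells of a type and less RNA per cell cannot be told apart, and this holds for every level given here.

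*Dcn* encodes decorin, the class I member with a single chain that coats collagen fibrils and binds TGF-β, at 97479609 to 97518143 on chromosome 10. Its values were 536, 407 and 546 TPM in control mice and 409, 788 and 557 TPM in *Prdm16* SMKO mice. The ranges overlapped almost fully, and *Prdm16* SMKO replicate 2 stood apart at the top. The means of 496 ± 77.2 and 585 ± 191 TPM gave a log2 fold change of 0.20 with an interval from -0.37 to 0.76 (limma adjusted p = 0.923), and without *Prdm16* SMKO replicate 2 the sign turned to -0.04. *Aspn* encodes asporin, which binds collagen and TGF-β, at 49544443 to 49567565 on chromosome 13. It stood at 20.7, 30.9 and 27.7 TPM in control mice and 28.1, 23.4 and 22.6 TPM in *Prdm16* SMKO mice. These groups overlapped too, with a log2 fold change of -0.08 and an interval from -0.51 to 0.35 (limma adjusted p = 0.971), and the sign turned to 0.04 without control replicate 2.

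*Bgn* and *Dcn* are the close relatives of class I, and their relation to each other was taken within each library. There were 3.49, 6.53 and 3.37 *Bgn* transcripts per *Dcn* transcript in control mice and 3.38, 1.83 and 1.92 in *Prdm16* SMKO mice. The first knockout value lay between the control values, so the groups overlapped. On log2(TPM + 0.5) the difference between the genes changed by -0.90 (exact permutation p = 0.2, adjusted over the 36 pairs of members p = 0.4).

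Class II holds lumican, fibromodulin, PRELP and osteomodulin, which bind collagen and several of which carry keratan sulfate. *Lum* encodes lumican, which keeps collagen fibrils thin and evenly spaced, at 97565128 to 97572703 on chromosome 10. Its TPM values were 60.4, 47.0 and 59.1 in control mice and 47.7, 87.2 and 66.3 in *Prdm16* SMKO mice. Like *Dcn* it was highest in *Prdm16* SMKO replicate 2 and lowest in control replicate 2, the groups overlapped, and the log2 fold change was 0.24 with an interval from -0.28 to 0.75 (limma adjusted p = 0.891). *Fmod* encodes fibromodulin, which binds collagen and guides its cross-linking, at 134037254 to 134048277 on chromosome 1. It stood at 47.2, 44.95 and 46.2 TPM in control mice and at 32.9, 55.5 and 47.2 TPM in *Prdm16* SMKO mice. The controls lay within a narrow band that the knockout values straddled, with SDs of 1.13 and 11.4 TPM. The log2 fold change was -0.06 with an interval from -0.51 to 0.39 (limma adjusted p = 0.986), and it turned to 0.15 without *Prdm16* SMKO replicate 1.

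*Prelp* encodes PRELP, which carries a heparin-binding stretch and joins basement membranes to collagen, at 133910304 to 133921414 on the minus strand of chromosome 1. Its values were 117, 168 and 121 TPM in control mice and 144, 149 and 137 TPM in *Prdm16* SMKO mice. The knockout values lay between the lower 2 controls and the highest control, with a log2 fold change of 0.10 and an interval from -0.29 to 0.49 (limma adjusted p = 0.955). *Omd* encodes osteomodulin, best known from mineralised tissue, at 49582462 to 49592822 on chromosome 13. It was the least abundant of the 9 in both groups, at 11.5, 9.29 and 10.5 TPM in control mice and 6.93, 11.98 and 7.04 TPM in *Prdm16* SMKO mice. Of the knockout libraries, replicates 1 and 3 were below all controls and replicate 2 was above them. The fit gave a log2 fold change of -0.30 with an interval from -0.82 to 0.23 (limma adjusted p = 0.851).

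*Ogn*, of class III, encodes osteoglycin, also called mimecan, a matrix protein found in vessel walls, and lies at 49608046 to 49624501 on chromosome 13. Its control values of 518, 505 and 524 TPM spanned little, with an SD of 9.26 TPM, and those of *Prdm16* SMKO mice were 566, 661 and 496 TPM. *Prdm16* SMKO replicates 1 and 2 were above all controls and replicate 3 was below them. Its log2 fold change was 0.15 with an interval from -0.21 to 0.50 (limma adjusted p = 0.914).

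*Podn* encodes podocan, of the class of SLRPs with the most repeats, which binds collagen and has been studied as a brake on smooth muscle growth. It lies on the minus strand of chromosome 4 at 108014791 to 108096445, 46.2 Mb from *Prdm16* on the same chromosome. It stood at 27.6, 27.7 and 26.2 TPM in control mice and at 31.2, 43.6 and 41.2 TPM in *Prdm16* SMKO mice. All 3 knockout values were above all 3 controls, and replicate 1 was nearest to them. The means were 27.2 ± 0.841 and 38.7 ± 6.54 TPM (SD, n = 3 each), a fitted fold of 1.40 with an interval from 1.08 to 1.82. The log2 fold change was 0.49 (SE 0.17), its limma adjusted p was 0.427 and the exact permutation test gave p = 0.1. Over the 18 other settings it ran from 0.39 to 0.63, with adjusted p between 0.084 and 0.784. The lowest was reached with array weights, where control replicate 1 far outweighed the other controls. Without *Prdm16* SMKO replicate 3, 1 of the 9 SLRP genes rather than 2 had an unadjusted p under 0.05.

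**Figure D2:**
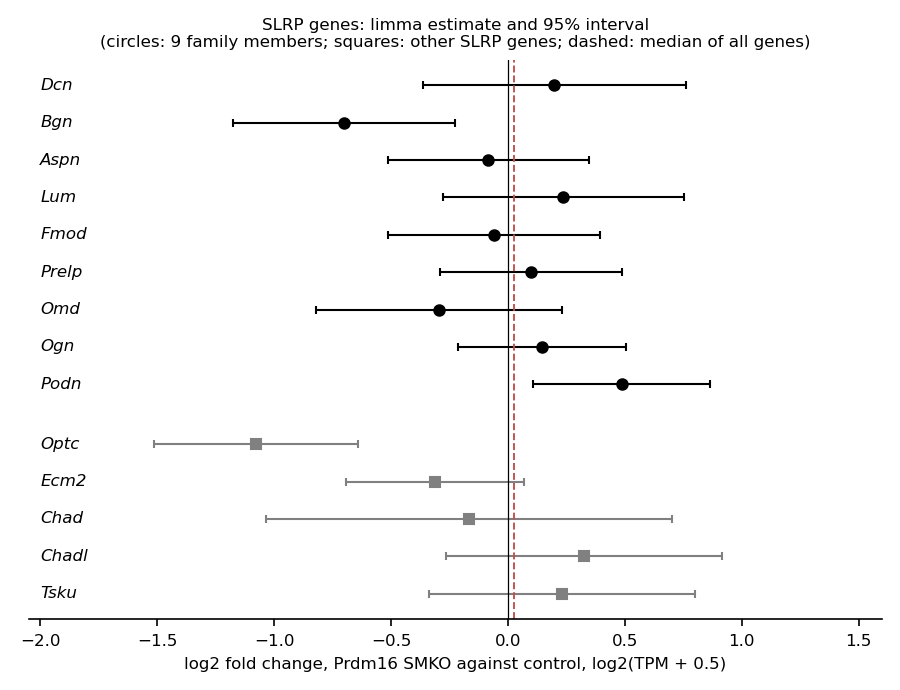
Log2 fold change of *Prdm16* SMKO against control libraries on log2(TPM + 0.5) with its 95% confidence interval from limma, for the 9 SLRP genes (circles) and 5 other SLRP genes above the expression minimum (squares). The dashed line marks the median of all genes at 0.02, and the intervals of *Bgn*, *Podn* and *Optc* do not reach 0.

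The order of abundance was set by a few genes. In control mice it ran from *Bgn* through *Ogn*, *Dcn*, *Prelp*, *Lum*, *Fmod*, *Podn* and *Aspn* to *Omd*. The ranges of neighbours in this order overlapped for *Ogn* and *Dcn*, for *Lum* and *Fmod* and for *Podn* and *Aspn*, and not for the other 5 neighbouring pairs. In *Prdm16* SMKO mice *Dcn* and *Ogn* changed places, with overlapping ranges. *Lum* and *Fmod* overlapped again, *Fmod* overlapped with *Podn*, and *Podn* no longer overlapped with *Aspn*.

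Summed over the 9 genes, SLRP transcripts made up 0.321%, 0.390% and 0.3202% of all TPM in control mice and 0.265%, 0.326% and 0.245% in *Prdm16* SMKO mice. The sums of 3437 ± 402 and 2785 ± 425 TPM (SD, n = 3 each) overlapped between groups (exact permutation p = 0.3). *Bgn* took 58.3%, 68.2% and 57.5% of this sum in control mice and 52.2%, 44.2% and 43.8% in *Prdm16* SMKO mice. Its share of 61.3 ± 5.96% against 46.7 ± 4.74% did not overlap between groups, with an exact permutation p of 0.1. Shares add up to a fixed total, so a smaller share of *Bgn* raises those of the others. That of *Ogn* was 15.1 ± 1.90% in control and 20.6 ± 0.629% in *Prdm16* SMKO mice, that of *Prelp* 3.92 ± 0.344% and 5.21 ± 0.560%, and that of *Podn* 0.796 ± 0.078% and 1.40 ± 0.258%, without overlap and with an exact permutation p of 0.1 each. Without *Bgn* the sum of the other 8 genes was 1313 ± 63.7 TPM in control mice and 1487 ± 294 TPM in *Prdm16* SMKO mice (exact permutation p = 0.4).

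**Figure D3:**
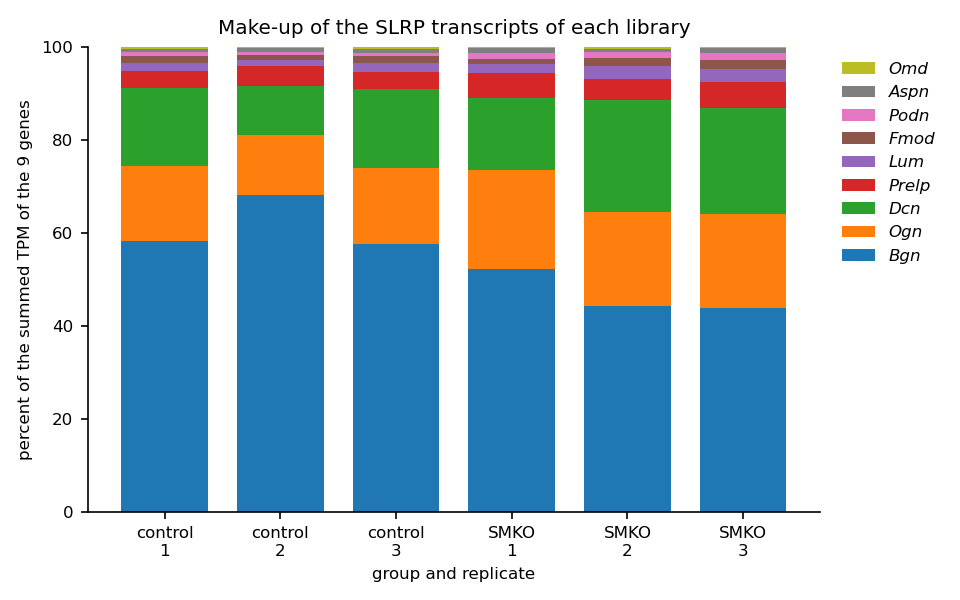
Percent of the summed TPM of the 9 SLRP genes taken by each gene, stacked to 100 for each of the 6 libraries. The lowest, blue part is *Bgn*, which takes 57.5% to 68.2% in control libraries and 43.8% to 52.2% in *Prdm16* SMKO libraries.

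Log2 ratios between members were compared for all 36 pairs as differences of log2(TPM + 0.5), in which the scaling of a library cancels but for the pseudocount. The groups did not overlap for 12 of them. *Bgn* was in 5 of these, *Podn* and *Omd* in 4 each, *Lum* and *Ogn* in 3 each, *Fmod* in 2, and *Dcn*, *Prelp* and *Aspn* in 1 each. The 36 pairs share 9 genes, and the share of pairs without overlap over other genes was not computed. None reached an adjusted p under 0.3, the smallest that these 36 exact permutation tests gave. The ratio of *Bgn* to *Podn* differed most, with a difference of -1.19 between the groups on the log2 scale. The log2 ratio of *Bgn* to *Lum* differed by -0.94, that to *Ogn* by -0.85, that to *Prelp* by -0.80 and that to *Aspn* by -0.62, each without overlap.

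Several SLRP genes lie next to each other, and their ratios were compared within these clusters. *Dcn* and *Lum* are 47.0 kb apart on chromosome 10, and there were 8.87, 8.67 and 9.24 *Dcn* transcripts per *Lum* transcript in control mice and 8.57, 9.04 and 8.41 in *Prdm16* SMKO mice. While each gene varied widely between libraries, their log2 ratio had an SD of 0.051 over the 6 libraries, the smallest of the 36 pairs, whose median SD was 0.33. *Prelp* and *Fmod* are 116 kb apart on chromosome 1 and did not keep such a ratio, with 2.49 to 4.39 *Prelp* transcripts per *Fmod* transcript. On chromosome 13 *Ecm2*, *Aspn*, *Omd* and *Ogn* follow each other with gaps of 11.7, 14.9 and 15.2 kb. There were 45.2, 54.4 and 49.7 *Ogn* transcripts per *Omd* transcript in control mice and 81.6, 55.2 and 70.4 in *Prdm16* SMKO mice. These did not overlap, and on log2(TPM + 0.5) the change was 0.44 (exact permutation p = 0.1, adjusted p = 0.3). A gene that overlaps others can share reads with them where strand is not kept. *Cenpp*, at a mean of 0.658 TPM, runs across *Aspn*, *Omd* and *Ogn* on the opposite strand and shares 7 exon bases with *Aspn*, and the antisense gene *Gm15851*, listed at 0, shares 350 exon bases with *Prelp*. *Scp2*, at a mean of 242 TPM, overlaps the span of *Podn* on the same strand and shares 0 exon bases with it.

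Markers of VSMCs and of fibroblasts varied between libraries, and the SLRP genes were set against both. The 12 VSMC markers summed to 18592 to 30594 TPM in control and 14709 to 22662 TPM in *Prdm16* SMKO mice, and the median of their log2 fold changes was -0.19. Without single libraries that median ran from -0.38 to 0.021, and it was above 0 without control replicate 2. None was called, while *Smtn* (-0.53), *Des* (0.51) and *Cnn1* (-0.48) had an unadjusted p under 0.05. The most abundant, *Acta2* and *Tagln*, had log2 fold changes of -0.47 and -0.32 (limma adjusted p = 0.765 and 0.825). The 14 fibroblast markers listed summed to 2610 to 2649 TPM in control and 1995 to 3411 TPM in *Prdm16* SMKO mice. Of these 13 were tested, and the median of their log2 fold changes was 0.07. That median ran from -0.15 without *Prdm16* SMKO replicate 2 to 0.27 without *Prdm16* SMKO replicate 1. Here *Lamc3* (-0.63) and *Col1a1* (-0.54) had an unadjusted p under 0.05, and *Gsn* (0.28) and *Col1a2* (-0.39), the most abundant, did not.

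Against the mean of the VSMC markers *Bgn* kept almost the same distance in the 3 controls, at 2.10, 2.17 and 2.18 on the log2 scale, and stood at 1.498, 1.72 and 1.56 in *Prdm16* SMKO mice. Control replicate 2, in which *Bgn* was highest, was thus not apart from the other controls on this scale. The difference of -0.56 had no overlap (exact permutation p = 0.1, adjusted over the 9 genes p = 0.6). Against the mean of the fibroblast markers *Bgn* stood at 4.24, 4.75 and 4.09 in control mice and 4.10, 3.38 and 3.47 in *Prdm16* SMKO mice. Here the groups overlapped by a small margin, with a difference of -0.71 (exact permutation p = 0.2), and without the collagen genes *Col1a1* and *Col1a2* among the markers the difference was -0.80 with no overlap.

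*Podn* relative to fibroblast markers stood at -1.81, -1.81 and -2.01 in control mice and at -1.34, -1.65 and -1.21 in *Prdm16* SMKO mice, a difference of 0.48 without overlap. Relative to VSMC markers its difference was 0.63 and the groups overlapped. *Omd* relative to fibroblast markers was lower by 0.31 on the log2 scale in *Prdm16* SMKO mice without overlap, where the plain TPM values overlapped. For *Podn* and *Omd* against the fibroblast markers the exact permutation p was 0.1 and the p adjusted over the 9 genes was 0.36. Relative to VSMC markers the difference of *Omd* was -0.15 with overlap (exact permutation p = 0.7). Relative to fibroblast markers the values of *Dcn* lay closer together on the log2 scale than as TPM. They stood at 2.44, 2.05 and 2.34 in control mice and 2.35, 2.51 and 2.53 in *Prdm16* SMKO mice, with overlap. Against the VSMC markers they ran from -0.54 in control replicate 2 to 0.85 in *Prdm16* SMKO replicate 2, also with overlap. The part of the cell composition in these results was not tested.

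**Figure D4:**
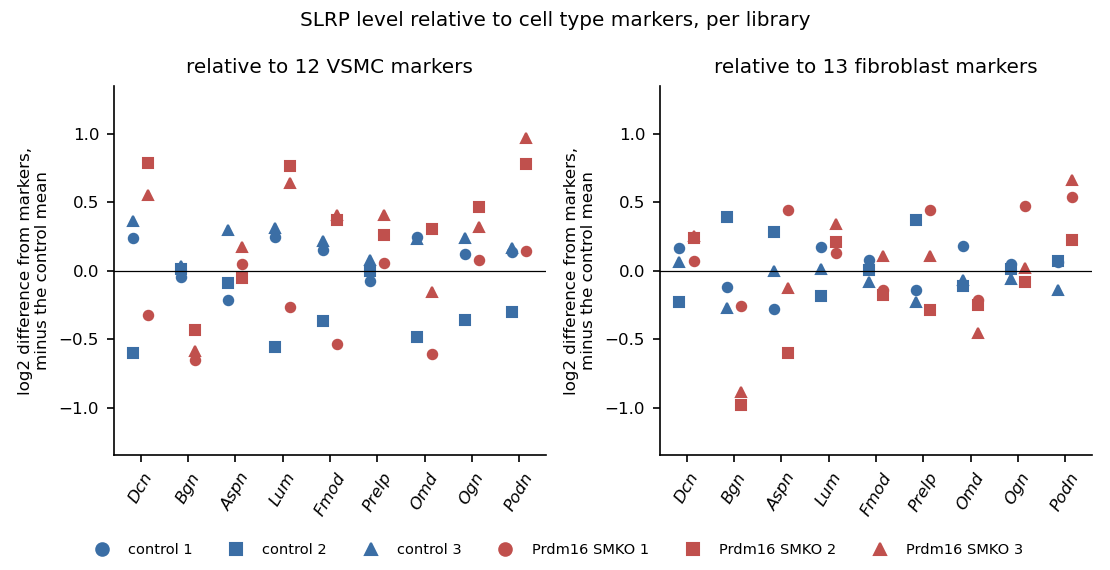
Log2 level of each SLRP gene minus the mean log2 level of 12 VSMC markers (left) or 13 fibroblast markers (right) in the same library, with the mean of the controls set to 0, for 3 control libraries (blue) and 3 *Prdm16* SMKO libraries (red). *Bgn* lies below all controls against the VSMC markers and overlaps with them against the fibroblast markers, whereas *Podn* lies above all controls against the fibroblast markers only.

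The remaining genes of the family were looked at next. Of 9 other SLRP genes 5 passed the expression minimum, *Kera* was listed at 0 in all libraries, and *Epyc*, *Nyx* and *Podnl1* were below the minimum. *Optc* encodes opticin, a class III relative of *Ogn* known from the eye, and lies 2.304 kb from *Prelp* on chromosome 1. It stood at 99.97, 113 and 81.0 TPM in control mice and at 55.5, 45.5 and 37.9 TPM in *Prdm16* SMKO mice. All knockout values were below all controls. Its log2 fold change, larger in size than that of any of the 9 members, was -1.08 (SE 0.19, interval -1.51 to -0.64), with a limma adjusted p of 0.065 that missed the threshold. It passed under 6 of the 18 other settings, with adjusted p from 0.0069, with array weights, to 0.241 over all of them. *Ecm2*, which encodes a leucine-rich matrix protein next to *Aspn*, stood at 52.3, 63.6 and 46.7 TPM in control and 46.1, 45.5 and 38.4 TPM in *Prdm16* SMKO mice, without overlap (log2 fold change -0.31, limma adjusted p = 0.704). *Chad* (-0.17), *Chadl* (0.33) and *Tsku* (0.23), of lower expression, had adjusted p of 0.855 or more by limma.

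The glycosaminoglycan chains of SLRPs are made by a set of Golgi enzymes, of which 27 of 30 listed passed the minimum. Of these 11 were higher and 16 lower in knockout mice, the median of their log2 fold changes was -0.02, and 1 was called. This was *Chst1*, a sulfotransferase of keratan sulfate, at 1.93, 1.64 and 1.87 TPM in control mice and 4.86, 5.07 and 5.24 TPM in *Prdm16* SMKO mice. The groups lay far apart at a low level, and *Chst1* rose by 1.27 on the log2 scale (SE 0.19, limma adjusted p = 0.0398). The call was lost under 9 of the 18 other settings, among them the omission of any 1 library, with adjusted p from 0.0797 to 0.158 then. Enzymes with an unadjusted p under 0.05 were *Xylt1* (0.47), which starts the chain, *B3galt6* (-0.60), which extends its linker, and *Chsy1* (-0.56) and *Chpf* (-0.38), which lengthen chondroitin. *Chst12*, a chondroitin sulfotransferase and among the most abundant of the list, had a log2 fold change of 0.26 (limma adjusted p = 0.869).

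The ligands of SLRPs are fibrillar and other collagens, elastin, fibronectin and growth factors. Of 18 such genes 13 were lower and 5 higher, and their median log2 fold change was -0.35 beside 0.02 over all genes. That median stayed between -0.43 and -0.24 when single libraries were left out. At an unadjusted p under 0.05 stood 9 of the 18, 7 lower and 2 higher, where 8.74% of all genes tested did. The list was chosen with earlier results of these data known, so these counts and the median are a description and not a test. *Eln*, which encodes elastin, was called, at 2531, 3550.01 and 1988 TPM in control mice and 757, 941 and 597 TPM in *Prdm16* SMKO mice. It fell by 1.80 on the log2 scale (SE 0.25, limma adjusted p = 0.0312) without overlap. The call was lost under 7 of the 18 other settings, among them the omission of any 1 control library or of *Prdm16* SMKO replicate 3, with adjusted p up to 0.170.

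Among the lower genes not called but with an unadjusted p under 0.05 were *Col3a1* (-0.74), *Fn1* (-0.74), *Col5a1* (-0.53) and *Col5a2* (-0.54), which encode fibrillar collagens and fibronectin. On the higher side were *Col14a1* (0.89), a fibril-associated collagen, and *Tgfb2* (0.53). *Col14a1* stood at 45.1, 49.3 and 44.6 TPM in control mice and 83.1, 102 and 75.1 TPM in *Prdm16* SMKO mice, without overlap (limma adjusted p = 0.067). Its knockout values were all above the controls while *Col3a1*, at 903, 887 and 789 TPM in control mice, stood at 447, 668 and 450 TPM in *Prdm16* SMKO mice (limma adjusted p = 0.234).

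Among 14 receptors 7 were higher and 7 lower, their median change was 0.03 on the log2 scale, and none was called. *Cd44*, the hyaluronan receptor, stood at 11.4, 19.0 and 12.7 TPM in control mice and at 29.3, 26.9 and 24.2 TPM in *Prdm16* SMKO mice, without overlap (log2 fold change 0.91, limma adjusted p = 0.161). *Met* (0.82), a receptor tyrosine kinase to which decorin binds, also had an unadjusted p under 0.05, at no more than 2.26 TPM. The most abundant receptors, *Itgb1* (-0.02) and *Lrp1* (-0.03), had limma adjusted p of 0.994 and 0.990.

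A list of 15 genes held proteinases that process SLRPs and *Pcolce*, which encodes an enhancer of such processing and not a proteinase. Of these 9 passed the minimum, 3 higher and 6 lower, at a median change of -0.11 on the log2 scale and none called. *Htra1* (-0.46), a secreted serine protease, had an unadjusted p under 0.05, and *Adamts1* (-0.33) did not. Of 24 other proteoglycan core proteins 21 passed the minimum, 10 higher and 11 lower, at a median change of -0.10 on the log2 scale and none called. At an unadjusted p under 0.05 stood 7 of the 21, 3 lower and 4 higher, where 8.74% of all genes tested did. The lower ones were *Acan* (-1.14) and *Vcan* (-0.65), the large aggregating proteoglycans, and *Esm1* (-0.78). Among the higher ones were *Prg4* (0.81), *Gpc3* (0.50) and *Sdc3* (0.48). *Vcan* stood at 25.3, 31.9 and 24.8 TPM in control mice and 16.3, 18.6 and 16.4 TPM in *Prdm16* SMKO mice, without overlap (limma adjusted p = 0.208). The most abundant of these, *Hspg2* (-0.22) and *Cspg4* (-0.42), had limma adjusted p of 0.898 and 0.622.

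**Figure D5:**
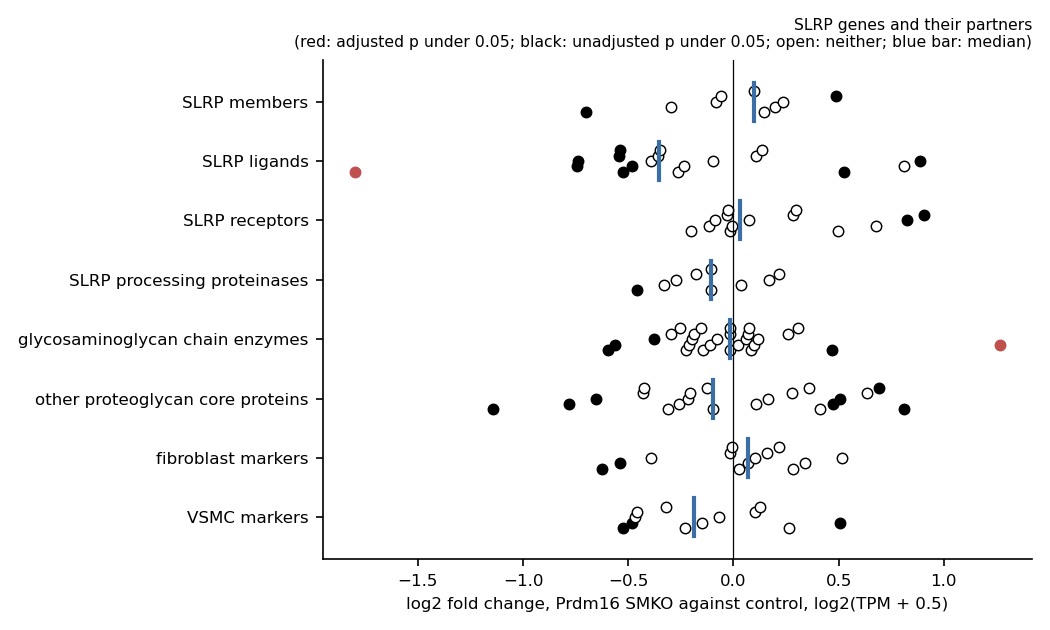
Log2 fold change of *Prdm16* SMKO against control libraries on log2(TPM + 0.5) for the SLRP genes and 7 lists around them, with 1 circle per gene spread vertically within its list only for visibility and with a blue bar at the median of the list. Filled red circles are the called genes *Eln* and *Chst1*, black circles have an unadjusted p under 0.05, and the bar of the ligands lies at -0.35 while that of the SLRP genes lies at 0.10. The lists were chosen with earlier results of these data known.

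Markers of other cell types of the vessel and its surroundings were listed too, and none of them was called. The 10 macrophage markers summed to 83.6 to 131.4 TPM in control and 131.3 to 242 TPM in *Prdm16* SMKO mice, with 9 of 10 higher and a median change of 0.73 on the log2 scale, which was 0.46 without *Prdm16* SMKO replicate 2. Of these *C1qa* (0.80), *C1qb* (0.78), *C1qc* (0.71), *Lyz2* (0.80), *Adgre1* (0.75) and *Cd68* (0.78) had an unadjusted p under 0.05. The 10 endothelial markers summed to 300.4 to 371 and 335 to 549 TPM with a median of 0.33, with *Vwf* (0.90) and *Cldn5* (-0.54) at an unadjusted p under 0.05 and *Pecam1* (0.50) and *Egfl7* (-0.09) as the most abundant. The 10 adipocyte markers summed to 811 to 1742 TPM in control and 1011 to 4352 TPM in *Prdm16* SMKO mice, and replicate 3 held the highest value of 10 of 10. The median log2 fold change of this list was 0.83, and 0.20 without that library. *Retn* (0.99) and *Lep* (1.21) had an unadjusted p under 0.05, and *Fabp4* (0.24) and *Cfd* (0.84) were the most abundant.

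The 7 Schwann cell markers given here summed to 134, 195 and 114 TPM in control mice and to 249, 166 and 104 TPM in *Prdm16* SMKO mice. The sum was highest in *Prdm16* SMKO replicate 1, 6 of the 7 genes were higher, and their median log2 fold change was 0.89, and 0.30 without that library. Of them *S100b* (0.71) had an unadjusted p under 0.05, and *Pmp22* (-0.14) was among the most abundant. The 12 skeletal muscle and cardiomyocyte markers summed to 13.6 to 21.9 TPM in control and 16.4 to 82.5 TPM in *Prdm16* SMKO mice. Of these 8 passed the minimum, with *Actc1* (1.37) and *Myh6* (-0.91) at an unadjusted p under 0.05 and *Tnnt3* (0.49) among the most abundant. The highest sum of this list was that of *Prdm16* SMKO replicate 1, and the median log2 fold change of 0.45 turned to -0.84 without that library. Of 10 chondrocyte markers 3 passed the minimum, all lower with a median of -1.14, and their list summed to 7.67 to 13.5 and 3.91 to 6.52 TPM, with *Hapln1* (-1.24) and *Acan* at an unadjusted p under 0.05. Of 6 mesothelial markers 0 passed it, at 0.64 TPM or less in sum. The part of these cells in the SLRP values was not tested.

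The genes whose log2 pattern over the 6 libraries was most like that of each SLRP gene were taken by Pearson r from the 9660 genes at 5 TPM or more on average. With 6 libraries and so many genes high values are reached easily, and the libraries share their scaling, so that r is a description. Nearest to *Bgn* were *Serinc5*, *Itga9*, *Plod1*, *Tinagl1* and *Lrp5*, with r from 0.993 to 0.9995. Nearest to *Dcn* were *Ctsk*, *Hfe*, *Lgi2*, *Cpxm1* and *Ecrg4*, with r from 0.968 to 0.991. *Lum* shared 4 of these 5, *Lgi2*, *Cpxm1*, *Hfe* and *Ctsk*, with *Gpnmb* as the last, whereas no other pair of the 9 shared a gene among its nearest 5.

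Nearest to *Podn* were *Card10*, *Cebpg*, *Ucp2*, *Cavin2* and *Cyp4b1*, with r from 0.985 to 0.997. *Fmod* lay nearest to *F3*, *Ogn* to *Slc35f5*, *Prelp* to *Cast*, *Aspn* to *Rab3ip* and *Omd* to *Zfp451*, with r of 0.994, 0.991, 0.997, 0.967 and 0.984. The mean of the 9 standardised patterns was most like *Ldb2*, *Tlnrd1*, *Pcolce*, *Serping1* and *Ptprj*, with r from 0.978 to 0.988. *Pcolce* encodes a procollagen processing enhancer and was also on the list of proteinases, at 59.4, 66.7 and 63.0 TPM in control mice and 58.2, 76.7 and 60.4 TPM in *Prdm16* SMKO mice (log2 fold change 0.04, limma adjusted p = 0.990).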

How the data were processed

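The authors deposited TPM values for 55426 genes in 6 libraries, rounded to 2 decimals, made from 151 bp paired-end reads of a polyadenylated RNA library kit that is not described as stranded. The submitters' processing notes list bcl2fastq, cutadapt 2.3, FastQC 0.11.8, STAR 2.7.8a, RSEM 1.3.3, MultiQC 1.7 and GRCm38, without roles, and the annotation is not given in the sources used here. TPM correct for length and fix the total of each library, so a few abundant genes shift all others, and they keep no depth.

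Gene positions were taken from GENCODE M21 on GRCm38, in which 55154 identifiers were found. The fit used limma 3.58.1 in R 4.3.3 with a variance trend on log2(TPM + 0.5), two-sided, for genes whose mean reached 0.5 TPM, and it was tested on simulated data. Exact permutation tests and figures used scipy 1.17.1, matplotlib 3.10.9, pandas 2.3.3 and numpy 2.4.6 under Python 3.11.15. Named were the members, other SLRP genes, and from each list the called genes, up to 6 genes of unadjusted p under 0.05 the 2 of highest mean TPM, and the 5 genes most like each member. *Myh11* was added after its values were seen. Members and lists were chosen with earlier results of these data known. The lists were written from general knowledge. A listed marker gene is not reported here. Alternatives were the pseudocount, the minimum, the scaling, the variance model, array weights, a replicate block and leaving out each library, 17 in all, and 1 added after seeing the data, scaling without mitochondrial and 45S ribosomal genes. The number of identical library pairs was 0.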

Additional observations from a re-analysis of the deposited data

How the results depend on the processing

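Of the 9 SLRP genes 0 were called under each of the 18 other settings, and the median of their log2 fold changes ran from -0.04 to 0.15. Signs turned for 3 of them, none called. The log2 fold change of *Aspn* was 0.20 with array weights, and with single libraries left out it ran from -0.25 to 0.036, that of *Fmod* from -0.22 to 0.15 and that of *Dcn* from -0.044 to 0.43. With VSMC markers in place of fibroblast markers as the reference the relative changes of *Fmod* and *Aspn* turned to 0.082 and 0.057. The number of genes called over the whole table, 56, was 10 with no expression minimum, 153 with median-of-ratios size factors, 129 after quantile normalization, 33 without the variance trend, 112 with a robust variance prior, 494 with array weights and 123 after scaling without mitochondrial and 45S ribosomal genes, and it ran from 5 to 61 when single libraries were left out, with 17, 5 and 17 without control replicates 1, 2 and 3 and 28 without *Prdm16* SMKO replicate 2. The cause was not tested. Array weights gave control replicate 1 a weight of 10.1 and the other libraries 0.41 to 0.95. In that setting the control group thus rested mostly on control replicate 1. Same-numbered libraries of the groups had correlations of -0.13, -0.11 and 0.02 between their deviations from the group means. Those of differently numbered libraries ran from -0.17 to 0.24. The labels state no pairing, and correlations over so few libraries cannot exclude one. With the replicate number as a block 4 genes were called. With 3 libraries a group and no depth in TPM values, counting error could not be separated from the spread between libraries.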
